A study of Mus musculus with 11 samples.

Results

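The regions described here are short stretches of H3K27me3 inside introns, in endocrine cells sorted from the pancreas of mouse pups. They are the H3K27me3 regions that the authors annotated to an intron and that are narrower than 5000 bp. After 33 repeated entries were dropped, 4431 such regions remained of 20086 H3K27me3 regions in all, or 22.06%. CUT&Tag was used, in which an antibody directs a transposase to cut and tag the DNA around a histone mark. The 2 Isl1CKO libraries (Isl1loxP/loxP;Neurod1-cre) came from pups that lose the LIM-homeodomain factor ISL1 wherever Neurod1-Cre, a driver of the endocrine lineage, has been active. The 2 Control libraries (Isl1loxP/+;Neurod1-cre) came from littermates that carry Cre and 1 floxed allele, so Control cells are themselves heterozygous after recombination. Both genotypes carried the Ai14 tdTomato reporter on a C57BL/6 background, both sexes were used, and cells were sorted for tdTomato at P9. Each library was a separate pool of 3 to 4 pancreases and about 20000 cells. H3K27ac was profiled in the same way in 2 Isl1CKO and 2 Control libraries. ISL1 binding was profiled in Control cells only, in 2 libraries at E14.5 and 1 library at P9.

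H3K27me3 is placed by Polycomb repressive complex 2, which tends to nucleate at CG-rich promoters of silent developmental genes and to spread from there. H3K27ac marks active promoters and enhancers and cannot sit on the same lysine of the same histone tail as H3K27me3. Weak H3K27me3 inside genes is commonly found where a gene is not, or hardly, transcribed, and a region that carries both marks in sorted cells can hold both in different cells. In such bulk samples, fewer cells with the mark and less mark per cell cannot be told apart.

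The genes with the most narrow intronic regions differed in the marks their promoters carried. Promoters of 4 of these host genes are shown, as an example of each of the 4 states found among hosts. They are single genes and do not stand for the CG content of their state. A host was the gene whose intron the authors' annotation names. The promoter of Camta1, a calmodulin-binding transcription activator with 50 narrow intronic regions, had H3K27ac only. That of Ebf3, a neural transcription factor with 21, had H3K27me3 only. That of Kcnd3, a voltage-gated potassium channel with 27, had both marks, and that of Aff3, a nuclear factor of lymphoid and neural tissue with 24, had neither. Each sequence runs from 250 bases before to 50 after a RefSeq gene start on GRCm38.p6, at chr4:151861719-151862018 (minus strand), chr7:137314396-137314695 (minus strand), chr3:105451640-105451939 (plus strand) and chr1:38627195-38627494 (minus strand). Capitals mark the motif CG, which reads the same on both strands.
Camta1: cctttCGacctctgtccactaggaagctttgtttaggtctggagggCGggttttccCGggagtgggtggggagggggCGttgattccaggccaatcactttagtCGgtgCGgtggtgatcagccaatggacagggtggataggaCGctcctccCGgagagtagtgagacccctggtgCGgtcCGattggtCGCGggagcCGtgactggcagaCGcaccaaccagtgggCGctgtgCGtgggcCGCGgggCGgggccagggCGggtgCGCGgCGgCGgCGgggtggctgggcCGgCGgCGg
Ebf3: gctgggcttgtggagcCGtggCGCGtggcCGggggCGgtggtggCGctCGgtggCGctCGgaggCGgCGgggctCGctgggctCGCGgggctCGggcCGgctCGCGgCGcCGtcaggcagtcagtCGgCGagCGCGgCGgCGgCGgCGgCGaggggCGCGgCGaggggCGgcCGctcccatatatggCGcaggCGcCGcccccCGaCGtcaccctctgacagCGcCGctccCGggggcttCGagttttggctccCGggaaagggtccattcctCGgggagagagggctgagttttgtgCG
Kcnd3: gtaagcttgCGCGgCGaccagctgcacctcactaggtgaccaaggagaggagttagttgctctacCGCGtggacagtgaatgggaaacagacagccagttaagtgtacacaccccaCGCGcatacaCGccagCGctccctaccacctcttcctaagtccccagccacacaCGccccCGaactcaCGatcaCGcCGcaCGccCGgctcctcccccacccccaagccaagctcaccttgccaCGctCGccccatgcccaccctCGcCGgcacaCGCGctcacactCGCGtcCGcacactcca
Aff3: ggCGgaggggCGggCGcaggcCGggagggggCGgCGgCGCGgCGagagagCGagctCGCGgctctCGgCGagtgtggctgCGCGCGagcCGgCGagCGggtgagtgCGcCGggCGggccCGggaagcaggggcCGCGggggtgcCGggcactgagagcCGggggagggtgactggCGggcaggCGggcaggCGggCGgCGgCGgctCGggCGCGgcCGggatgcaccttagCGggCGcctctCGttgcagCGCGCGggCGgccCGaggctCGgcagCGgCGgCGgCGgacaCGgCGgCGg
The motif CG occurs 28 times in the Camta1 promoter, 46 times in that of Ebf3, 25 times in that of Kcnd3 and 54 times in that of Aff3, against a median of 7 over all 32851 RefSeq promoters of this length. Of these promoters, 14.2% hold at least as many as Camta1 and 0.347% at least as many as Aff3. Aff3 had the highest count among the hosts with neither mark that were matched to RefSeq. By contrast, 62.0% of promoters hold at least as many as Cdh23, another host with H3K27me3 only. The build of these sequences is not that of the regions, which are on GRCm39, so no region was placed on them.

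Some narrow intronic regions had a microRNA gene as the nearest start. There were 101 such regions beside 35 microRNA genes, of which 34 were found in RefSeq. For the 4 microRNA genes with the most regions, these regions lie in introns of Grid1, Grik3, Pax5 and Arrb1. The mature sequences are shown, as the products of the genes these regions are annotated to, with the seed (bases 2 to 8) in capitals.
mmu-miR-346-5p: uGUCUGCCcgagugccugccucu
mmu-miR-346-3p: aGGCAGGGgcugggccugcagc
mmu-miR-692: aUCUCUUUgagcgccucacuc
mmu-miR-5120: uUUGGGGCuguggugccaccagc
mmu-miR-326-5p: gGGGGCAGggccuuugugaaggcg
mmu-miR-326-3p: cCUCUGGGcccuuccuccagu
No seed was shared among these sequences. Around Mir346, 21 regions in Grid1, a glutamate receptor subunit of the delta class, summed to 333 and 311 CPM, which are counts scaled to library size, in Isl1CKO, against 311 and 348 CPM in Control. Around Mir692-2, 19 regions in Grik3, a kainate receptor subunit, summed to 448 and 480 CPM in Isl1CKO, against 431 and 353 CPM in Control. Around Mir5120, 9 regions in Pax5, a B cell factor, summed to 155 and 135 CPM in Isl1CKO and 171 and 98.8 CPM in Control. The groups overlapped at Mir346 and Mir5120, while both Isl1CKO libraries were above both Control libraries at Mir692-2. At Mir326 in Arrb1, a beta-arrestin, the 4 regions summed to 87.6 and 78.3 CPM in Isl1CKO and 90.4 and 32.2 CPM in Control, and the low value was that of Control 2. The regions lay beside these microRNA genes rather than on them, with the nearest between 3365 and 6647 bp from its start.

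The libraries behind these values were of unequal depth and did not rank weak regions alike. H3K27me3 counts in regions were 2276887 and 2260039 in Isl1CKO and 1202276 and 1750706 in Control, and CPM values are scaled by TMM factors on these counts. A count of 0 in 1 library allows up to 1.27 to 2.63 CPM. Across the 4233 narrow intronic regions that passed the filter on low counts, log2(CPM + 1) correlated between libraries at Pearson r of 0.197 to 0.488. Across the 1581 wide domains of 5000 bp or more it did so at 0.878 to 0.955. All these r are across regions, which share each library's depth. Narrow intronic regions with 0 counts numbered 94 and 117 in the Isl1CKO libraries, against 42 in Control 1 and 311 in Control 2. Over 70% of the CPM lay in 1 library at 208 regions, of which 77 and 70 were in the Isl1CKO libraries, 1 in Control 1 and 60 in Control 2. The sort was checked on markers with H3K27ac promoters: all 9 general endocrine markers had one, while 0 of 5 acinar, 0 of 4 endothelial, 0 of 4 mesenchymal, 0 of 3 immune and 0 of 3 glial markers had one listed. Of 4 ductal markers 1 had one, at 5.99 and 8.33 CPM in Isl1CKO and 12.2 and 37.9 CPM in Control, and its part in the results was not tested. Ins2, G6pc2, Gcg, Sst and Hhex, which are islet markers, had no H3K27ac promoter listed.

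Narrow intronic regions were short, weak and clustered. Their width was 291 to 4995 bp with a median of 1082 bp, and 43.4% were under 1000 bp. Their median level was 10.3 CPM, or 10.7 CPM per kb, against 35.7 CPM per kb in wide domains. The density was close to that of narrow distal intergenic regions (10.6 CPM per kb) and narrow promoter regions (12.6 CPM per kb). A median of 80 counts over the 4 libraries stood behind each region, and 64.9% had fewer than 100. The first intron held 42.2% of them, close to the 43.9% of intronic H3K27ac regions. The nearest gene start was a median of 19126 bp away, and it was the start of the host gene in 1870 regions (42.2%). Another H3K27me3 region lay within 5000 bp of 77.3% of them, at a median gap of 1005 bp, and a wide domain lay that close to 14.6%.

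The highest levels among narrow intronic regions were found at the following genes. An intron of Prdm6, a PR-domain regulator of smooth muscle, held 301 and 227 CPM in Isl1CKO, against 219 and 289 CPM in Control, and had the highest level at 73.3 CPM per kb. Igdcc3, an immunoglobulin superfamily receptor gene, held 192 and 201 CPM in Isl1CKO and 179 and 218 CPM in Control. Wt1, the Wilms tumour zinc finger gene, held 94.0 and 78.7 CPM in Isl1CKO and 79.9 and 87.1 CPM in Control, at 59.7 CPM per kb. Ostm1, a subunit of a lysosomal chloride transporter, held 169.3 and 151.9 CPM in Isl1CKO and 133.4 and 173.1 CPM in Control. The groups overlapped at all of these, and also at the other 3 of the highest 8 by CPM, beside Gm29824, Gm5750 in Col13a1 and Gm29327. Gdf6, a BMP ligand, held 164 and 151 CPM in Isl1CKO and 107 and 141 CPM in Control, with both Isl1CKO libraries higher, a log2 fold change of 0.34 (SE 0.29), or 0.15 without Control replicate 1 and 0.54 without Control replicate 2. Ntn1, the axon guidance cue netrin-1, held 105 and 91.8 CPM in Isl1CKO and 111 and 191 CPM in Control, with both Isl1CKO libraries lower, at -0.62 (SE 0.33), or -0.96 without Control replicate 1 and -0.19 without Control replicate 2. Neither difference passed the edgeR quasi-likelihood test. At the width limit, the widest regions kept were those of Gm19972 in Unc5b (4995 bp, 88.2 CPM), Gm13090 in Camta1 (4966 bp, 110 CPM) and B020031H02Rik (4960 bp, 85.6 CPM). Just past it stood Nxn (5000 bp, 87.2 CPM), Gm29327 in Gm29683 (5070 bp, 195 CPM) and Gm13617 in Csrnp3 (5072 bp, 96.2 CPM).

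The host genes of these regions were long. A longer gene holds more intron in which a region can lie, and no density per kb of intron was taken. The lengths given here therefore do not show a concentration in long genes. The 4431 regions lay in 1556 host genes, of which 778 had a single region and 77 had 10 or more, with 26.9% of all regions in these 77. The median length of the hosts was 69486 bp over the 1461 with a length in the files, and 201969 bp for those with 10 or more regions, against 8985 bp for all 31659 genes named in the files. After Camta1 came Dab1, an adaptor of reelin signalling, with 36 regions. Grid1 followed with 28, then Cdh23, the tip-link cadherin of the inner ear, and Kcnd3 with 27 each. Kcnip1, an auxiliary subunit of Kcnd channels, had 26 and Dpp6, another such subunit, had 25. The densest stretches, with gaps of at most 5000 bp, held 19 narrow intronic regions over 66474 bp in Slc24a4, a sodium, calcium and potassium exchanger, and 18 over 61994 bp in Ebf3. Pax3, a neural crest and muscle factor, held 17 over 47594 bp.

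**Figure D1:**
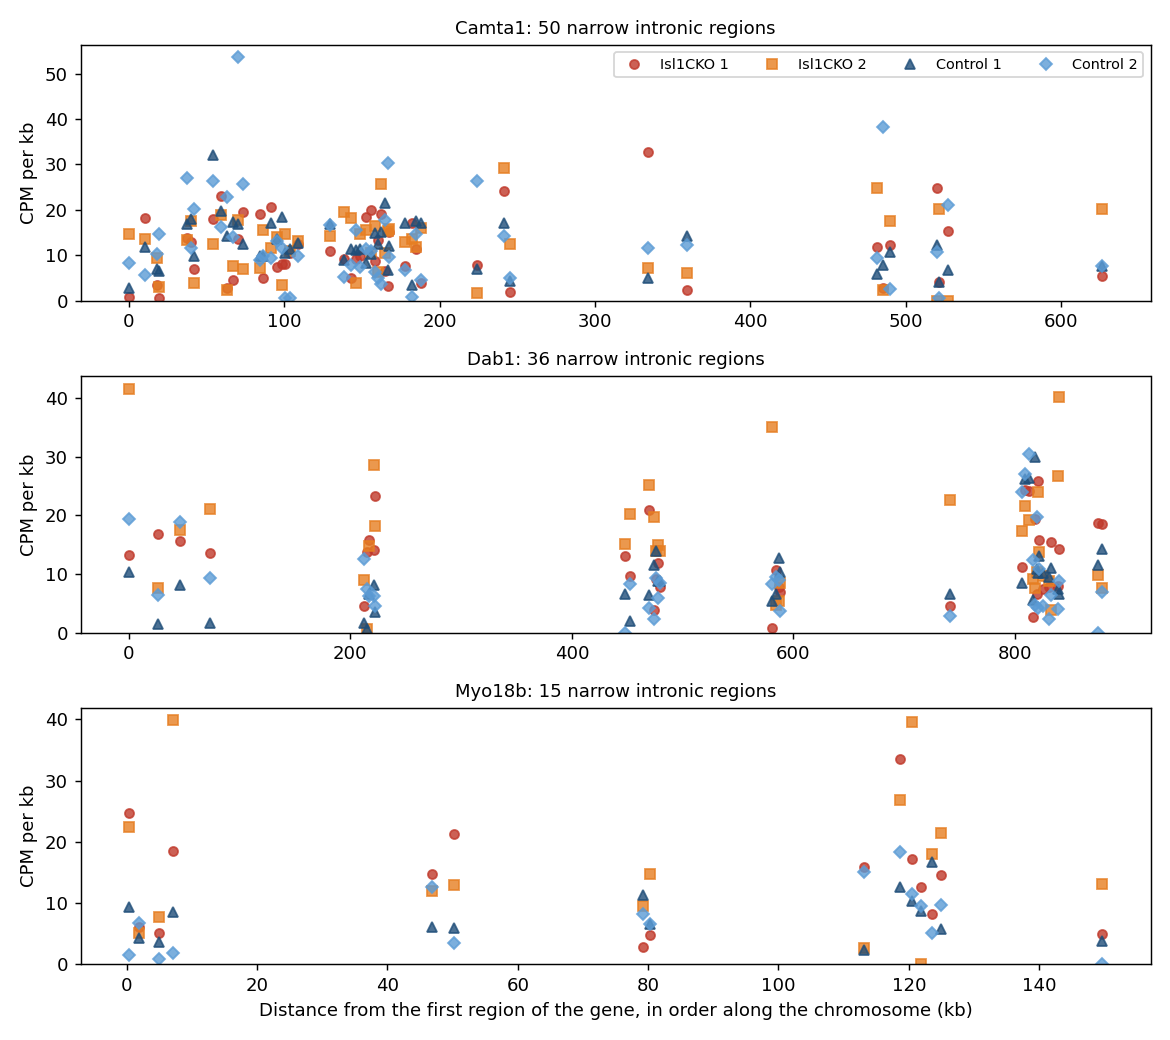
H3K27me3 level in CPM per kb (vertical axis) of each narrow intronic region of Camta1, Dab1 and Myo18b against its distance in kb from the first region of the gene (horizontal axis), with 1 symbol per library. The Isl1CKO and Control symbols intermix along Camta1, while most regions of Myo18b have both Isl1CKO symbols on top.

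Summed over its regions, Camta1 held 1176 and 1235 CPM in Isl1CKO and 1310 and 1345 CPM in Control. Both Isl1CKO libraries lay above both Control libraries at 9 of its regions and below both at 13. Dab1 held 641 and 690 CPM in Isl1CKO and 533 and 502 CPM in Control, with 13 of its regions above and 4 below. The sum was lower in Isl1CKO at Camta1 and higher at Dab1, and in each the groups did not overlap. Tox2, an HMG-box factor, held 596 and 561 CPM in Isl1CKO and 491 and 377 CPM in Control, with 10 of 22 regions above and 1 below. Sema5b, a semaphorin of axon guidance, held 236 and 250 CPM in Isl1CKO and 357 and 313 CPM in Control, with 1 of 21 regions above and 10 below. Igf1r, the receptor of insulin-like growth factor 1, held 140 and 145 CPM in Isl1CKO and 170 and 239 CPM in Control, with 1 of 17 above and 6 below. Cdh23 held 550 and 553 CPM in Isl1CKO and 507 and 213 CPM in Control, where the gap is mostly that of Control 2.

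Fitted as sums per host beside all other regions, 0 of 1508 host genes were called by edgeR at an adjusted p below 0.05. The share called over all 16709 features of that fit was 0%. At an unadjusted p below 0.05 there were 91 hosts, a count without a background over all features, so nothing is read from it. DESeq2 called 6, and 1.47% of all features in its fit. Both Isl1CKO libraries were above both Control libraries in 399 hosts (26.5%), where the background over all features of that fit was 18.1%. They were below in 153 (10.1%), with a background of 17.3%. Among hosts with at least 3 regions whose groups did not overlap, the following were among the 6 with the smallest p in each direction. Myo18b, an unconventional myosin of muscle, held 222 and 249 CPM in Isl1CKO and 120 and 123 CPM in Control over 15 regions. Its log2 fold change was 0.96 (SE 0.25), with 8 regions above and 0 below, and 0.98 without Control replicate 2 (edgeR adjusted p = 1, DESeq2 adjusted p = 0.00477). Tmcc3, a transmembrane protein of the endoplasmic reticulum, held 291 and 321 CPM in Isl1CKO and 199.2 and 140 CPM in Control over 14 regions. Its log2 fold change was 0.86 (SE 0.24), with a DESeq2 adjusted p of 0.0198. Hrh1, the histamine H1 receptor, held 97.4 and 99.9 CPM in Isl1CKO and 49.1 and 32.2 CPM in Control over 6 regions, at 1.29 (SE 0.43) and a DESeq2 adjusted p of 0.0405. Kcnk2, a two-pore potassium channel also known as TREK-1, held 86.8 and 66.0 CPM in Isl1CKO and 32.5 and 27.5 CPM in Control over 5 regions. These 4 measured higher in Isl1CKO, as did Tcerg1l, a gene related to a transcription elongation regulator, with 204 and 172 CPM in Isl1CKO and 116 and 92.4 CPM in Control over 8 regions, at 0.86 (SE 0.29). The sixth was 4930550C17Rik, with 54.4 and 77.9 CPM in Isl1CKO and 24.6 and 17.5 CPM in Control over 4 regions, at 1.67 (SE 0.55) and a DESeq2 adjusted p of 0.0385. Of those that measured lower, Eva1c, a membrane protein that binds the guidance cue Slit, held 31.0 and 35.1 CPM in Isl1CKO and 79.9 and 113 CPM in Control over 3 regions. Its log2 fold change was -1.54 (SE 0.45), with a DESeq2 adjusted p of 0.0143. Mvb12b, a subunit of the ESCRT-I sorting complex, held 178 and 201 CPM in Isl1CKO and 288 and 320 CPM in Control over 10 regions, at -0.68 (SE 0.22).

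Region by region, the comparison asked where loss of ISL1 came with more or less H3K27me3. The edgeR quasi-likelihood test called 0 of the 4233 narrow intronic regions tested, and 0% of all 19434 H3K27me3 regions tested. The smallest adjusted p was 0.833. At an unadjusted p below 0.05 there were 153 narrow intronic regions, 90 of them higher and 63 lower in Isl1CKO, with a background of 4.33% of all regions. DESeq2 called 12, with 2 higher and 10 lower, where it called 0.846% of all regions. In 10 of these 12 the highest library was Control 2. The authors' deposited table called 1585 of them (35.8%), 570 higher and 1015 lower, with a background of 38.8%. Of its calls, 36.0% were higher among narrow intronic regions and 23.6% among all regions.

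As a class, narrow intronic regions measured higher in Isl1CKO relative to all H3K27me3 regions. Their median log2 fold change was 0.26, against 0.04 over all regions. Scaled by sizes back-calculated from the authors' deposited table, both medians were below 0, at -0.27 for narrow intronic regions, so the sign depends on that scaling. The difference between the medians was 0.22, was 0.19 to 0.26 under the other settings, and was 0.07 after a loess correction for abundance. Both Isl1CKO libraries lay above both Control libraries at 1000 of 4233 regions (23.6%), where the background was 18.7%. They lay below at 500 (11.8%), where the background was 16.7%. In 356 of those 500 the highest library was Control 2. Without Control 2, the regions above numbered 1602 (37.8%, against 31.0% of all regions) and those below 971 (22.9%, against 31.1% of all).

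**Figure D2:**
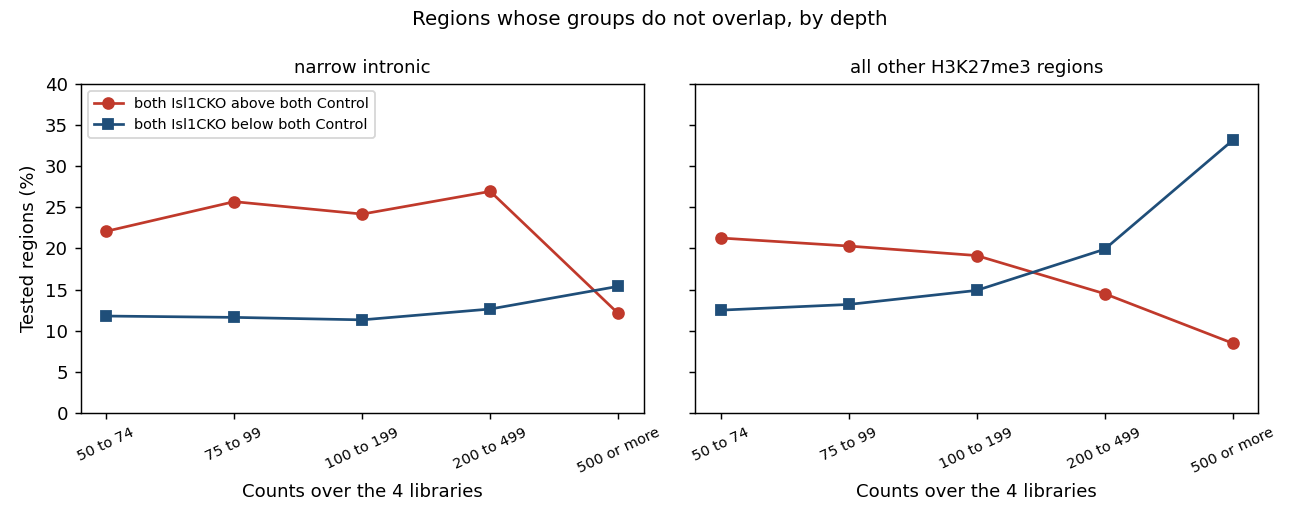
Share of tested regions (vertical axis, %) at which both Isl1CKO libraries lay above both Control libraries or below both, by counts over the 4 libraries (horizontal axis), for narrow intronic regions (left) and all other H3K27me3 regions (right). Among narrow intronic regions, above outnumbers below in every class under 500 counts, and with 500 or more counts 12.1% were above and 15.4% below.

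The difference varied with depth. Narrow intronic regions with 50 to 74 counts had a median log2 fold change of 0.29, those with at least 100 and under 200 counts 0.29, and those with at least 200 and under 500 counts 0.19. The 91 with at least 500 counts stood at 0.01. All other regions went the same way, with 0.20 in those with 50 to 74 counts, 0.08 with at least 100 and under 200, -0.03 with at least 200 and under 500 and -0.15 with at least 500. The median was higher in narrow intronic regions than in the others in each of these classes. The classes do not match depth exactly, and the one with at least 500 counts has no upper limit and holds most wide domains among the others. Narrow intronic regions at most 5000 bp from a wide domain had a median of 0.16, and those over 50000 bp away 0.28. What part abundance, depth and background play in these values was not tested.

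**Figure D3:**
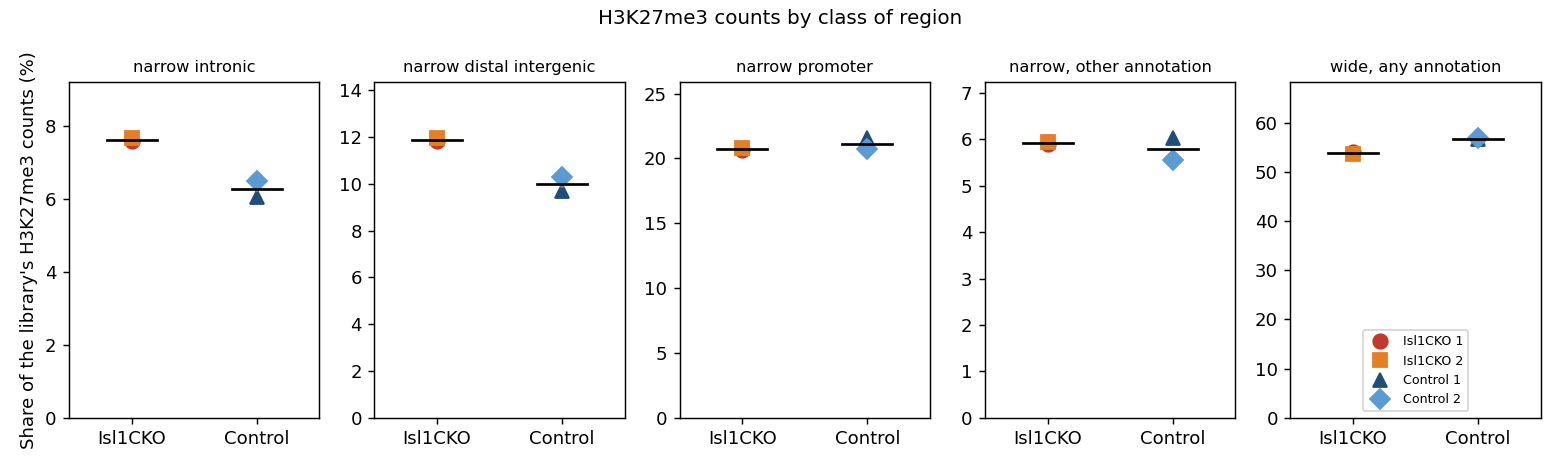
Share of each library's H3K27me3 counts (vertical axis, %) in 5 classes of region, with Isl1CKO left of Control, 1 symbol per library and a line at each group mean. Narrow intronic and narrow distal intergenic regions took a larger share in both Isl1CKO libraries, and wide domains a smaller one.

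The share of counts needs no scaling between libraries. Narrow intronic regions took 7.58% and 7.66% of H3K27me3 counts in Isl1CKO, against 6.06% and 6.50% in Control. The groups did not overlap, and the means of 7.62 ± 0.0622% in Isl1CKO and 6.28 ± 0.313% in Control (SD, n = 2 each) differed by 1.34 percentage points. The exact two-sided permutation p was 0.333, the smallest that 2 against 2 libraries allow. Narrow distal intergenic regions took 11.8% and 12.0% in Isl1CKO and 9.70% and 10.3% in Control. Wide domains took 54.0% and 53.7% in Isl1CKO and 56.7% and 56.9% in Control. Narrow regions of other annotation took 5.90% and 5.94% in Isl1CKO and 6.02% and 5.55% in Control. Narrow intronic and narrow distal intergenic regions thus took a larger share in Isl1CKO and wide domains a smaller one, without overlap between groups, while the groups overlapped in narrow regions of other annotation.

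**Figure D4:**
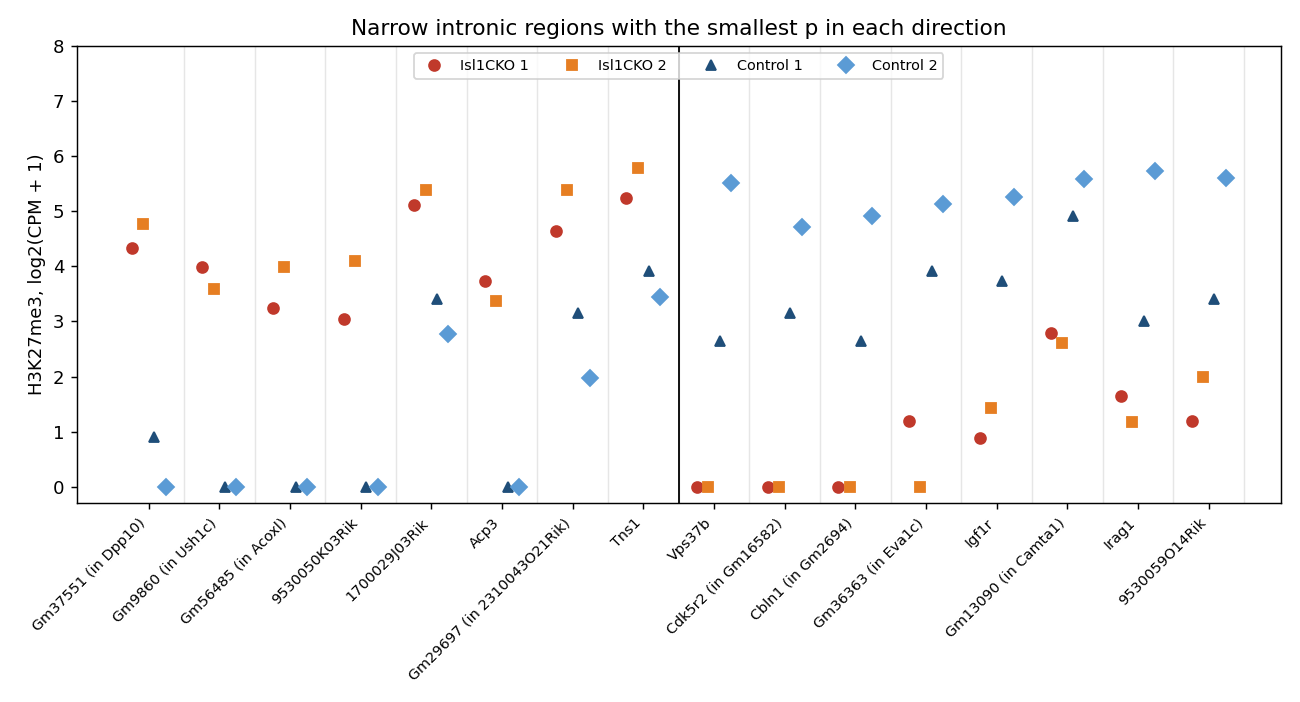
H3K27me3 as log2(CPM + 1) (vertical axis) in each library at the 8 narrow intronic regions per direction with the smallest p whose groups did not overlap (horizontal axis, nearest gene with its host in brackets), higher in Isl1CKO to the left of the black line and lower to the right. At all 8 regions on the right the highest symbol is that of Control 2.

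Among the regions that measured higher in Isl1CKO, several held almost no Control counts. An intron of Dpp10, an auxiliary subunit of Kv4 potassium channels, at chr1:123768616-123769884 beside Gm37551, held 45 and 62 counts in Isl1CKO and 1 and 0 in Control. Scaled counts were 64.7-fold higher, with 95% counting limits of 11.4 and 2578 (edgeR adjusted p = 1, DESeq2 adjusted p = 0.0338). An intron of Ush1c, the scaffold protein harmonin, at chr7:45849225-45850106, held 35 and 26 counts in Isl1CKO and 0 and 0 in Control, at least 12.3-fold higher. An intron of Acoxl, an acyl-CoA oxidase-like gene, at chr2:127726594-127727257, held 20 and 35 in Isl1CKO and 0 and 0 in Control, at least 11.1-fold higher. Intervals and bounds cover counting error only, and the bounds set a group of 0 at 3 counts over the group. The Control libraries thus held 0 or 1 count at each, at depths below those of Isl1CKO. A region needed at least 50 counts over the 4 libraries to be listed, and these reached that on Isl1CKO counts alone. Their fold values are therefore those of regions selected for being high in Isl1CKO. Tns1, the focal adhesion protein tensin 1, had counts in every library at chr1:74141223-74142477 in its first intron, with 36.6 and 54.2 CPM in Isl1CKO and 14.04 and 9.94 CPM in Control. Its log2 fold change was 1.92 (SE 0.66), or 1.68 without Control replicate 2. At chr16:93219733-93221184 in 1700029J03Rik the level was 33.6 and 40.6 CPM in Isl1CKO and 9.65 and 5.85 CPM in Control, a log2 fold change of 2.268 (SE 0.74, DESeq2 adjusted p = 0.0489). Adjusted p from edgeR was 1 for each of these. The regions of Tns1 and 1700029J03Rik also passed 50 counts through Isl1CKO alone and not through Control alone, so the same selection applies to them.

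The regions that measured lower in Isl1CKO had the highest level in Control 2. In the first intron of Vps37b, an ESCRT-I subunit, at chr5:124159149-124160417, 0 and 0 counts in Isl1CKO stood against 6 and 76 in Control, at least 45.2-fold lower, with a DESeq2 adjusted p of 0.00370 and an edgeR adjusted p of 0.833. Beside Cdk5r2, a neuronal activator of CDK5, at chr1:74902763-74903494, counts were 0 and 0 in Isl1CKO and 9 and 43 in Control. Beside Cbln1, the synaptic organiser cerebellin 1, at chr8:88208793-88209814, they were 0 and 0 in Isl1CKO and 6 and 50 in Control. The bounds were at least 28.7-fold and at least 30.9-fold lower. Most Control counts thus came from 1 library at each. With 0 counts in Isl1CKO, these regions reached the 50 counts needed to be listed on Control counts alone. Their bounds are therefore those of regions selected for being high in Control. In the first intron of Eva1c at chr16:90640926-90641995, counts were 3 and 0 in Isl1CKO and 16 and 58 in Control, or 0.0245 of the Control level after scaling, with counting limits of 0.00494 and 0.0745. In intron 2 of Igf1r at chr7:67745669-67746673, counts were 2 and 4 in Isl1CKO and 14 and 64 in Control, a log2 fold change of -4.23 (SE 1.15), or -3.22 without Control replicate 2. Of the 8 with the smallest p, that in Camta1 had the least uneven Control pair, with 14 and 12 counts in Isl1CKO and 33 and 80 in Control at chr4:151261565-151263607. These are 5.95 and 5.08 CPM in Isl1CKO and 29.0 and 46.8 CPM in Control, a log2 fold change of -2.77 (SE 0.76), or -2.39 without Control replicate 2. Irag1, an inositol trisphosphate receptor-associated protein, stood at -4.08 (SE 1.15) and at -2.02 without that library. In Sim2, a bHLH-PAS factor, counts were 1 and 2 in Isl1CKO and 19 and 33 in Control at chr16:93917930-93918692, and DESeq2 called it at an adjusted p of 0.0259. At the regions in Eva1c, Igf1r, Camta1, Irag1 and Sim2, Control counts alone passed the 50 needed and Isl1CKO counts alone did not. Their fold values and DESeq2 calls are thus also those of regions selected for being high in Control.

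Narrow intronic regions lay in genes of some families more than in others. Of all genes named in the files, 7.85% had at least 1 such region, in an intron or as the nearest gene. Among synaptic adhesion and scaffold genes it was 45 of 107 (42.1%), and among calcium and sodium channels 15 of 43 (34.9%). Axon guidance genes had 22 of 79 (27.8%), potassium channels 27 of 97 (27.8%) and neurotransmitter receptors 24 of 103 (23.3%). These families have long genes, with a median of 178862 bp for the synaptic list and 111042 bp for calcium and sodium channels, and the part of length was not tested. Homeobox genes, with a median length of 7509 bp, had 37 of 181 (20.4%), and those with a region had a median length of 38956 bp. In every list the genes with a region had a longer median than the list as a whole. Genes of islet hormones, transcription factors and identity had 5 of 67 (7.46%), and acinar and ductal markers 1 of 32 (3.12%).

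**Figure D5:**
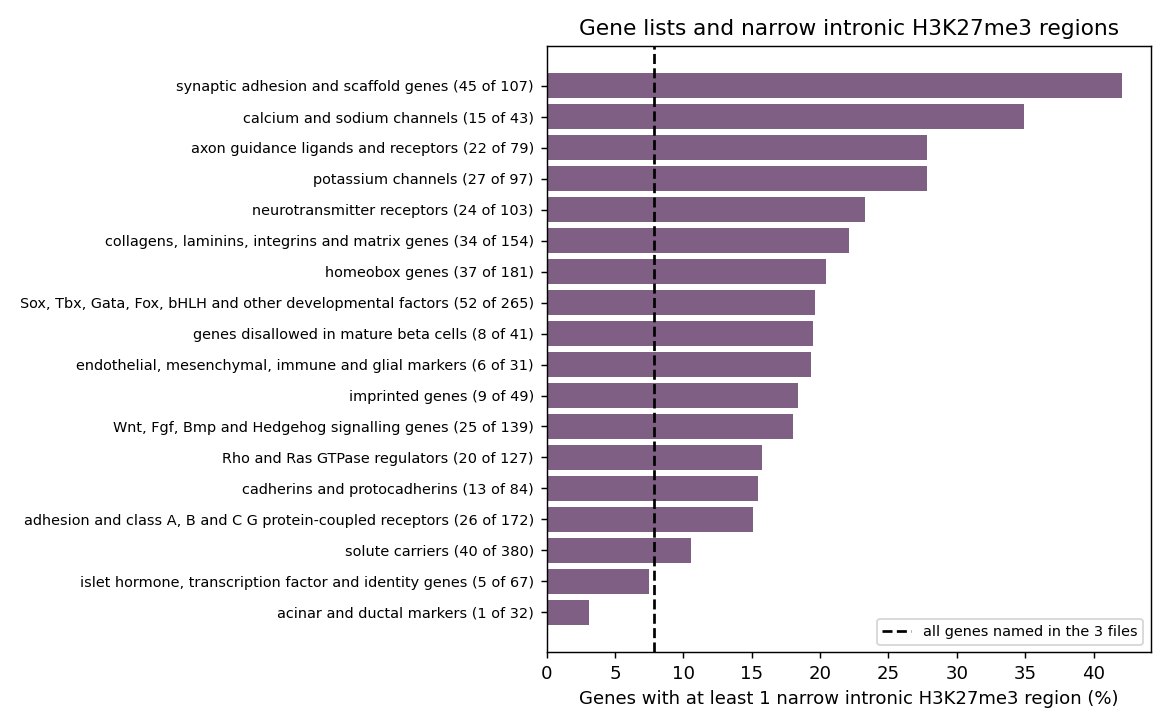
Share of the genes of each list with at least 1 narrow intronic H3K27me3 region (horizontal axis, %), with the counts in brackets and a dashed line for all genes named in the files. Synaptic adhesion and scaffold genes stand at 42.1% and islet genes at 7.46%, next to the dashed line at 7.85%.

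No region of any of the 18 lists was called by edgeR. The lists hold only narrow intronic regions, so the whole class is the nearer comparison. In that class 23.6% of tested regions were above and 11.8% below, and the median lay 0.22 above that of all regions. The Wnt, Fgf, Bmp and Hedgehog signalling genes had 72 tested regions, with 25 above (34.7%, background 18.7%) and 8 below (11.1%, background 16.7%). Their median log2 fold change lay 0.42 above that of all regions, and between 0.35 and 0.62 above under the other settings. Within them all 4 regions of Bmp6, a BMP ligand, lay above, summing to 92.3 and 91.8 CPM in Isl1CKO and 63.2 and 71.3 CPM in Control. The 24 regions annotated to Fgfr2, a fibroblast growth factor receptor, summed to 417 and 410 CPM in Isl1CKO and 269 and 367 CPM in Control. They were spread over 2347 kb of chromosome 7, so the sum is not that of a compact locus. Fgf18, a ligand of that family, had the other sign, with 0 of 5 regions above and 3 below, and sums of 143 and 121 CPM in Isl1CKO and 161 and 169 CPM in Control. The matrix and integrin genes had 20 of 78 regions above (25.6%) and 2 below (2.56%). Solute carriers had 25 of 119 above (21.0%) and 7 below (5.88%). Among solute carriers, the 15 regions of Slc16a7, a monocarboxylate transporter, summed to 228 and 231 CPM in Isl1CKO and 163.2 and 145.0 CPM in Control. The 13 of Slc6a11, a GABA transporter, summed to 226 and 195 CPM in Isl1CKO and 157.1 and 119 CPM in Control. Cadherins had 19 of 89 regions above (21.3%) and 8 below (8.99%). Among them Cdh22, a brain cadherin, had 0 of 15 above and 3 below, with 227 and 179 CPM in Isl1CKO and 329 and 225 CPM in Control.

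Islet genes with a narrow intronic region were near the share over all genes, as given above. Cacna2d3, a calcium channel subunit that marks delta cells, had 7 regions that summed to 110 and 86.7 CPM in Isl1CKO and 62.3 and 204 CPM in Control. Glis3, a zinc finger regulator of insulin transcription, had 6 that summed to 38.7 and 67.3 CPM in Isl1CKO and 50.02 and 116 CPM in Control. Abcc8, the sulfonylurea receptor of the ATP-sensitive potassium channel, had 2, with 35.3 and 21.6 CPM in Isl1CKO and 21.1 and 2.92 CPM in Control. The groups overlapped in the first 2, and in Abcc8 Isl1CKO was higher, by a small margin over Control 1. Glp1r, the GLP-1 receptor, and Neurog3, the endocrine progenitor factor, had 1 region each at 14.9 CPM or less in every library. Of the 16 tested islet regions 1 was above (6.25%, background 18.7%) and 3 were below (18.8%, background 16.7%). Over all narrow intronic regions the shares were 23.6% above and 11.8% below. Among genes disallowed in mature beta cells, which beta cells keep silent, 9 of 33 regions were above (27.3%) and 4 below (12.1%), near those shares of the class. Mylk, the myosin light chain kinase, had 8 regions with 149 and 155 CPM in Isl1CKO and 130 and 60.2 CPM in Control. Nfib, a nuclear factor I family member, had 8 with 77.8 and 86.3 CPM in Isl1CKO and 43.9 and 50.3 CPM in Control. Acot7, an acyl-CoA thioesterase, had 10 with 408 and 400 CPM in Isl1CKO and 410 and 265 CPM in Control, which overlap. Among imprinted genes, Grb10, an adaptor that restrains insulin signalling, had 5 regions with 135 and 136 CPM in Isl1CKO and 94.8 and 109 CPM in Control. Kcnk9, a TASK potassium channel, had 4 with 68.1 and 29.2 CPM in Isl1CKO and 11.4 and 22.8 CPM in Control.

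Narrow intronic regions had similar levels whatever marks the promoter of the host carried. Of the 1556 hosts, 605 had a promoter with H3K27me3 only, 272 with both marks, 139 with H3K27ac only and 540 with neither. Hosts with H3K27me3 only held 1985 regions, with a median of 10.8 CPM per kb and a median log2 fold change of 0.29. Those with both marks held 830, at 10.5 CPM per kb and 0.27. Those with H3K27ac only held 455, at 10.7 CPM per kb and 0.23, and those with neither 1161, at 10.6 CPM per kb and 0.23. A wide H3K27me3 domain was annotated to 371 hosts, which held 37.4% of the regions. The H3K27me3 promoter regions of hosts had the other sign: of 1222 tested, 141 were above (11.5%) and 317 below (25.9%), with a median log2 fold change of -0.13. Over all regions 18.7% were above and 16.7% below, and over all narrow promoter regions 14.3% and 20.2%, with a median of -0.08. Host promoter regions were taken at any width, such as 17611 bp at Ebf3, so these sets are not alike. Wide domains of any annotation had 7.15% above and 38.6% below, with a median of -0.16. What part width plays in the values of host promoters was not tested. Of 458 H3K27ac promoter regions of hosts tested, 76 were above (16.6%, background 18.1%) and 108 below (23.6%, background 19.5%), with a median of -0.21 against 0.06 over all H3K27ac promoter regions.

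H3K27ac met few narrow intronic regions. At least 1 base overlapped in 116 of 4431 (2.62%), against 20.4% of narrow promoter regions, 24.1% of wide domains and 1.89% of narrow distal intergenic regions. Of the 117 H3K27ac regions concerned, 107 were tested and edgeR called 0. At an unadjusted p below 0.05 there were 12, with a background of 5.83% of all H3K27ac regions. DESeq2 called 2, where it called 0.114% of all H3K27ac regions. Both Isl1CKO libraries were above both Control libraries at 15 (14.02%, background 18.1%) and below at 27 (25.2%, background 19.5%), and the median log2 fold change was -0.42 against -0.03 over all H3K27ac regions. The H3K27ac library of Control 2 correlated with the other 3 at 0.452 to 0.497 across regions, against 0.680 to 0.722 among those 3. Without Control replicate 1, that library is left alone as Control and the spread is taken from the Isl1CKO pair only. The edgeR count of 0 did not hold in that fit, and its calls are not read as a result.

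Intron 3 of Rbfox3, the neuronal splicing factor known as NeuN, had the largest H3K27ac counts among them, higher in Isl1CKO where H3K27me3 was lower. H3K27ac at chr11:118439235-118444176 held 118 and 234 counts in Isl1CKO and 103 and 94 in Control. That is 177 and 162 CPM in Isl1CKO and 78.6 and 50.9 CPM in Control, a log2 fold change of 1.39 (SE 0.35, edgeR adjusted p = 0.840, DESeq2 adjusted p = 0.0370). Leaving out Control 2 gave 1.11, and leaving out Control 1 gave 1.78. The narrow H3K27me3 region within it, at chr11:118439480-118440351, held 0 and 0 counts in Isl1CKO and 2 and 51 in Control. The H3K27me3 difference thus rested on Control 2, and the region was listed on its Control counts alone. A neighbouring H3K27ac region at chr11:118435332-118438004 held 56.9 and 50.7 CPM in Isl1CKO and 15.3 and 25.4 CPM in Control, at 1.384 (SE 0.56). At Prdm16, a zinc finger regulator of brown fat and neural fate, H3K27ac was 95.8 and 131 CPM in Isl1CKO and 88.5 and 50.9 CPM in Control, with a log2 fold change of 0.72 (SE 0.39). Creb3l1, a membrane-bound transcription factor of secretory cells, held 85.3 and 68.7 CPM in Isl1CKO and 70.2 and 55.7 CPM in Control. Nr4a2, a nuclear receptor, held 53.9 and 51.4 CPM in Isl1CKO and 61.0 and 36.3 CPM in Control, and both overlapped between groups.

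The 4 H3K27ac regions over narrow intronic ones that measured lower with the smallest p lay in introns of Cdh23, Cntfr, Cntn3 and Cpa5. At chr10:60430706-60431442 in Cdh23, H3K27ac held 0 and 0 counts in Isl1CKO and 24 and 64 in Control, with an edgeR adjusted p of 0.811 and a DESeq2 adjusted p of 0.0360. That region was listed on its Control counts alone. Cntfr, the receptor subunit of ciliary neurotrophic factor, held 6 and 4 counts in Isl1CKO and 46 and 86 in Control at chr4:41682581-41683359, a log2 fold change of -2.91 (SE 0.80). Cntn3, a contactin of neurons, held 3 and 1 in Isl1CKO and 19 and 84 in Control at chr6:102540898-102541548, at -3.74 (SE 1.08). Cpa5, a carboxypeptidase, held 5 and 3 in Isl1CKO and 36 and 74 in Control at chr6:30617035-30618238, at -2.95 (SE 0.87). The groups did not overlap in these 4, and edgeR adjusted p was 0.840 for Cntfr and Cntn3 and 0.848 for Cpa5. Without Control replicate 2 the log2 fold change was -2.70 for Cntfr, -2.65 for Cntn3 and -2.65 for Cpa5.

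ISL1 binding at the hosts was read from promoter windows, as whole-number ISL1 values of unstated unit. Of 1114 hosts with a window, 593 (53.2%) had a value of at least 1 at E14.5, against 37.7% of all windows. At P9, 158 (14.2%) did, against 8.86% of all windows. The excess varied with the marks of the host promoter. Among hosts with neither mark, 104 of 299 had such a value at E14.5, a smaller share than over all windows. At P9, 27 of these 299 did, close to all windows. Hosts with H3K27me3 only were above all windows, with 270 of 466 at E14.5 and 80 of 466 at P9. So were hosts with both marks. Hosts with H3K27ac only were above at E14.5, with 56 of 101, and below at P9, with 8 of 101. The P9 values rest on 1 library without a replicate and those at E14.5 on 2, so the stages are not compared. Ovol2, an epithelial zinc finger repressor, had the highest P9 value among hosts, 4, and 3 at E14.5, and its 2 narrow intronic regions summed to 12.3 and 23.3 CPM in Isl1CKO and 14.04 and 29.8 CPM in Control. Grid1 had 2 at P9 and 4 at E14.5. Slc24a4 had 2 at P9 and 5 at E14.5, with 646 and 540 CPM over 21 regions in Isl1CKO and 652 and 279 CPM in Control. The groups overlapped in these hosts.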

How the data were processed

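Chromatin was profiled by CUT&Tag in 2 Isl1CKO and 2 Control libraries per histone mark. Per the submitters' processing notes, the tools were edgeR 4.0.16, ChIPseeker 1.38.0, MACS2 2.2.6, Bowtie2 2.3.5.1 and Picard 2.27.4, and the build was GRCm39. The authors deposited raw counts per region and library, with at least 50 counts over the 4 libraries of a mark in every region. Their deposited table also gives a log2 fold change, a likelihood ratio score and a p-value per region, and other whole numbers per ISL1 window whose unit is not stated. Chromosome labels of the histone files follow alphabetical order and were relabelled, after which 100% of 10277 H3K27me3 regions matched the ISL1 file, against 9.25% as written.

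From the counts, levels are CPM scaled with TMM factors. Genotypes were compared with edgeR 4.0.16 (quasi-likelihood test, filterByExpr, Benjamini-Hochberg over all regions, R 4.3.3), and with DESeq2 1.42.0 as an alternative. The edgeR step was tested on simulated H3K27me3 counts, and the DESeq2 step was not. Samples were grouped by their labels. Replicate numbers did not pair the libraries (correlation of deviations -0.01 for H3K27me3 and 0.05 for H3K27ac). Per-sample columns not used numbered 0.

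The regions, gene lists and tests were chosen with earlier results of these data known. Named regions were the 8 per direction with the smallest p and no overlap between groups, the highest levels, the genes with most regions, those called by either tool, the highest 2 per list, the 8 with most H3K27ac and the 3 on each side of the width limit, and those described are a selection from these. Host sums and the microRNA and ISL1 values were added after seeing the data. Sequences are from RefSeq tables on GRCm38.p6. Of the hosts, 66.2% matched a RefSeq promoter, so a comparison of CG content over hosts is void and is not given.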

Additional observations from a re-analysis of the deposited data

How the results depend on the processing

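The count of 0 narrow intronic regions called by edgeR was the same under every scaling, filter, width limit and left-out library tried and with the replicate number as a block, while DESeq2 called 12. Their median log2 fold change was 0.38 with library totals only, -0.27 with sizes back-calculated from the authors' deposited table, 0.046 after the loess correction, 0.22 with the replicate block and 0.17 to 0.37 with 1 library left out. The share of counts differed by 1.01 points at a width limit of 2000 bp, by 0.909 points among regions of at least 100 counts and by 1.12 to 1.56 points with 1 library left out. Narrow intronic regions overlapped by H3K27ac numbered 40 when those H3K27ac regions had at least 100 counts. DESeq2 called 2 of the H3K27ac regions over them, and edgeR called 0 to 16 with 1 library left out. List medians minus that of all regions changed sign under some setting for synaptic, axon guidance, homeobox, other developmental, islet, imprinted, acinar and ductal, and other cell type lists. The causes were not tested. Depth limits most regions, since 64.9% held fewer than 100 counts.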
